A study of Mus musculus with 12 samples.

Results

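The genes described here encode amino acid transporters of the solute carrier (SLC) families, measured in IMG, a mouse microglial cell line made immortal for culture. They were chosen by name: 57 of the 41325 genes in the deposited tables belong to the Slc1, Slc6, Slc7, Slc36, Slc38 and Slc43 families, leaving out Slc7a2 and Slc7a11. The cells were wild type, of strain C57Bl6/J and all of the same passage, and they were harvested after 8 hours with scramble (the control), oAb or fAb, with 4 RNA-seq libraries in each group. The study's text describes oAb and fAb as amyloid beta in a fibrillar and an oligomeric form, but pairs these words with the abbreviations crosswise, so only the abbreviations are used below. Neither the dose nor whether replicates came from separate cultures is stated. The p-values therefore measure only the spread between these libraries, which may be technical.

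Cells take up and release amino acids through carriers that differ in substrate and in driving force. Some, such as the SLC38 and SLC6 carriers, are driven by sodium, the SLC36 carriers are driven by protons, and the light chains of the SLC7 family exchange one amino acid for another after pairing with the heavy chain Slc3a2 or Slc3a1. In microglia and macrophages these carriers feed protein synthesis, nitric oxide and glutathione production and the mTORC1 pathway, a kinase complex that senses amino acids at the lysosome. Several SLC6 members carry neurotransmitters or osmolytes such as serotonin, glycine, taurine and creatine.

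The libraries held 13638721 to 18124419 counts and 13449 to 13948 genes with a count. Of 10 microglia and macrophage markers all had counts, with a summed level of 3260 to 3580 TPM (a level per transcript length, scaled to the same total in every library) in scramble, 2680 to 2920 in oAb and 2570 to 2850 in fAb. Tmem119, a defining microglial marker, never exceeded 5 counts, and P2ry12, another, was at 3.60 to 10.4 TPM in scramble, 0.455 to 1.31 in oAb and 0.583 to 1.10 in fAb, without overlap between scramble and either treatment. Of the markers of other cell types, Aqp4 (astrocytes), Mog and Olig2 (oligodendrocytes), Cldn5 and Tek (endothelium) and Pdgfra (fibroblasts) had no count in any library. The 6 astrocyte markers summed to 93.8 to 108 TPM in scramble, 74.6 to 81.9 in oAb and 85.3 to 88.4 in fAb, nearly all of it Aldoc, and the 5 oligodendrocyte markers to 26.4 to 48.2 TPM in scramble and to at most 15.3 in oAb and 16.7 in fAb, nearly all of it Mbp. The 4 fibroblast markers summed to at most 0.0569 TPM in scramble, 1.14 to 1.72 in oAb and 0.875 to 1.38 in fAb, nearly all of it Dcn in the treated libraries, and the 4 endothelial markers to 0.0313 to 0.168, 0.292 to 0.450 and 0.275 to 0.509 TPM. The part of these markers in the results was not tested. The library scramble 3 stood apart: ribosomal protein genes took 10.59% of its counts, where scramble 1, 2 and 4 had 6.37 to 6.73%, and its transporters took 0.216% of all counts against up to 0.322%. Mitochondrial transcripts took 4.18 to 4.94% of the counts in scramble and 2.73 to 3.37% in the treated libraries. The libraries also fell into 2 sets by whether reads of the near-identical pair Timm23 and Gm10273 were counted at Timm23 (scramble 2, 3 and 4, oAb 1 and 2) or mostly at Gm10273 (the other 7 libraries, all 4 of fAb among them). Scramble 1 is the only control in the set that holds all fAb libraries, so with the set as a term of the fit fAb is compared with scramble 1 alone. Transporter calls that changed without scramble 3, or with the set as a term, are given with both values. The part of either in the results was not tested further.

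Of the 57 transporter genes, 23 had no count in any library, 10 had a count but never more than 10, and 24 had more than 10 in some library. The glutamate carriers of the brain were at or near 0: Slc1a1, Slc1a2 and Slc1a3 never exceeded 3 counts, and Slc1a6 and Slc1a7 had none. Slc7a7, a light chain that exports cationic amino acids, never exceeded 7 counts. No count was seen for Slc6a11, for Slc6a2 and Slc6a3, carriers of noradrenaline and dopamine, or for the glutamine carriers Slc38a3 and Slc38a5. A count of 0 allows up to 3 counts over a group, or 0.0457 CPM (counts scaled to the normalised library size) in scramble, and this limit covers counting error only.

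In the control the taurine carrier Slc6a6 had the highest level, with a mean of 278 TPM ± 86.6 (SD, n = 4) and a range from 150 in scramble 3 to 340. Next came Slc1a5 at 138 TPM, which exchanges glutamine and other neutral amino acids, then the betaine carrier Slc6a12 at 109, the glutamine carrier Slc38a2 at 107 and the light chain Slc7a5 at 102. The ranges of these 4 overlapped each with the next (119 to 154, 102 to 122, 55.5 to 136 and 85.1 to 125 TPM), so their order is not set beyond the spread. After treatment the order was another. The light chain Slc7a8 stood 9th in scramble at 48.4 TPM ± 10.4 (SD, n = 4) and 1st in both treatments, at 206 ± 13.7 in oAb and 204 ± 6.68 in fAb. Its treated range did not overlap that of the next genes, Slc7a5 and Slc6a6 (at most 174 TPM in either group). The plot of TPM by library shows each of the 24 detected genes.

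**Figure D1:**
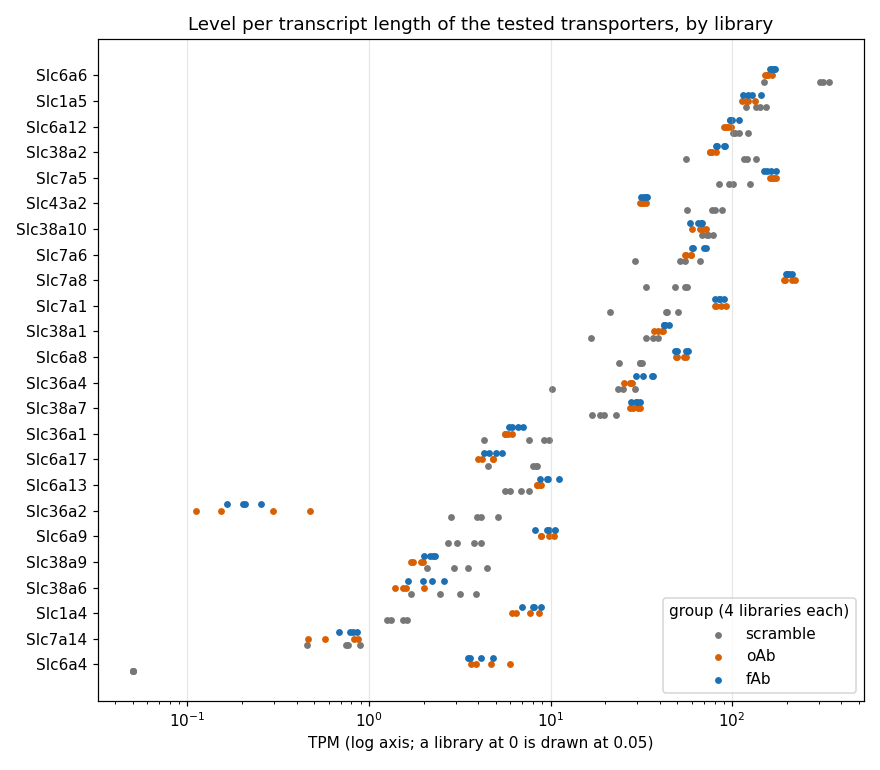
TPM of the 24 transporter genes with more than 10 counts in some library, on a log axis, with 1 point per library (4 per group) and genes ordered by their mean in scramble. Slc6a6 leads in scramble and Slc7a8 in both treatments, Slc6a4 is at 0 in all 4 scramble libraries, and Slc36a2 lies near the bottom after treatment.

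Treatment with oAb changed the transporter transcripts in both directions, more of them upwards. The light chain Slc7a8, the neutral exchanger Slc1a4, the arginine carrier Slc7a1 and the creatine carrier Slc6a8 rose by 2.02-fold to 5.70-fold, the serotonin carrier Slc6a4 appeared where it had no count, and the leucine carrier Slc43a2, the taurine carrier Slc6a6 and the proton-coupled Slc36a2 fell. In fAb each of these 8 genes passed in the same direction. In oAb against scramble 18 of 24 tested genes passed the test (edgeR's quasi-likelihood test, Benjamini-Hochberg adjusted p under 0.05 over all genes tested), 12 higher and 6 lower. The background was high: 52.2% of all 11033 genes tested passed, 25.2% higher and 27.0% lower. In fAb against scramble 17 of 24 passed, 12 higher and 5 lower, beside 56.3% of 11074 genes, 27.6% higher and 28.8% lower. The groups' libraries did not overlap for 17 of the 24 genes in oAb and 16 in fAb, against 51.1% and 55.4% of all genes. The median log2 fold change of the 24 was 0.24 in oAb and 0.39 in fAb, and that of all genes tested was -0.07 and -0.04. With upper quartile scaling 9 transporters were higher and 6 lower in oAb, beside 2127 and 4015 of all genes, and 11 and 5 in fAb, beside 2273 and 4361. The counts are descriptions: Slc6a4 passed the filter on low counts only through the treated libraries and Slc36a2 only through scramble, so both had to differ. In the 2 comparisons 12 genes were higher and 5 lower each time, while 6 passed in neither. Both use the same controls, so this agreement is not independent, and the matching share of all genes is not given here. In bulk RNA, a change in the cells' composition and a change in RNA per cell cannot be told apart.

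**Figure D2:**
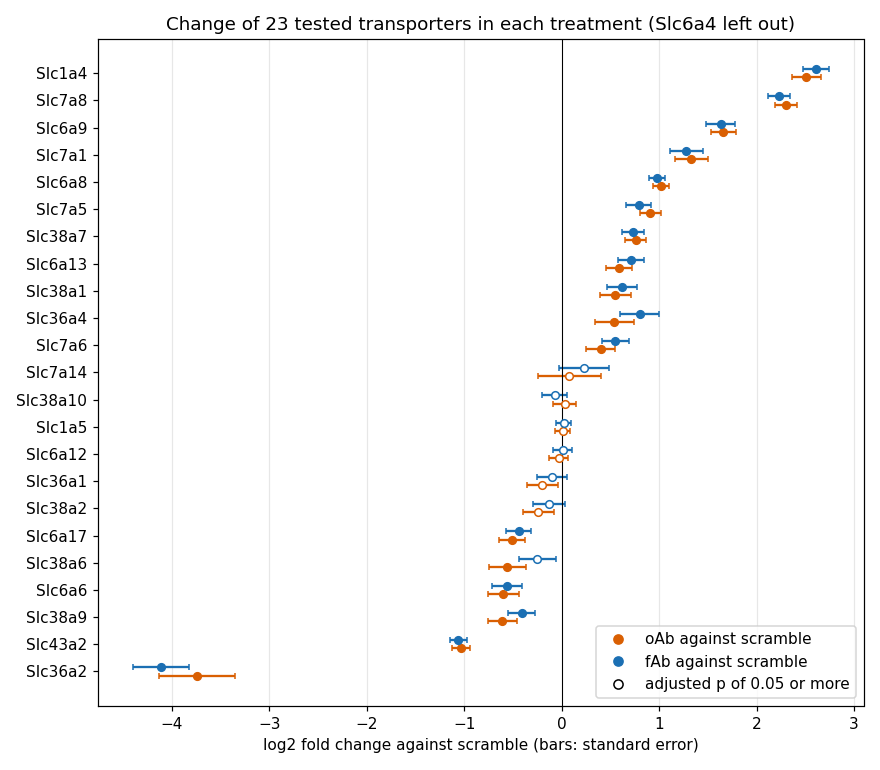
Log2 fold change against scramble with its standard error for 23 tested transporter genes, oAb in orange and fAb in blue, open points where the adjusted p was 0.05 or more. Slc1a4 and Slc7a8 lie above 2 and Slc36a2 below -3 in both treatments, and Slc6a4, which had no count in scramble, is left out because its fitted value is no bound.

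The windows around the start sites of the 3 genes with the largest rises, Slc6a4, Slc1a4 and Slc7a8, are shown because the transcription factor ATF4, which acts on many amino acid transporter genes, rose as well (below). Each runs 5′ to 3′ on the gene's strand, from 250 bases before to 50 bases after the start in RefSeq (GRCm38.p6). They lie at chr11:76998347-76998646 on the plus strand for Slc6a4, chr11:20332664-20332963 on the minus strand for Slc1a4 and chr14:54781837-54782136 on the minus strand for Slc7a8. Capitals mark the core of the C/EBP-ATF response element, searched on both strands as TGATGNAA.
Slc6a4: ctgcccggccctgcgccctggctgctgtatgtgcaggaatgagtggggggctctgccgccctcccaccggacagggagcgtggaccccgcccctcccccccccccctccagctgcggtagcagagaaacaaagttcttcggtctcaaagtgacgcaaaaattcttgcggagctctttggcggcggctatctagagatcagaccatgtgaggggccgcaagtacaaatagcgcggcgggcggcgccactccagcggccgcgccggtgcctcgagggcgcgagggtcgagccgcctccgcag
Slc1a4: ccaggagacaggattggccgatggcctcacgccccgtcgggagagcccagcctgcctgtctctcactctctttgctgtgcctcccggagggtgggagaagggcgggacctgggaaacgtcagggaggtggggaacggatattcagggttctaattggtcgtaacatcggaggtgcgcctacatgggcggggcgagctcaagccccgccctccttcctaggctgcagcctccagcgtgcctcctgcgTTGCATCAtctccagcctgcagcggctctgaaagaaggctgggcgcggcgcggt
Slc7a8: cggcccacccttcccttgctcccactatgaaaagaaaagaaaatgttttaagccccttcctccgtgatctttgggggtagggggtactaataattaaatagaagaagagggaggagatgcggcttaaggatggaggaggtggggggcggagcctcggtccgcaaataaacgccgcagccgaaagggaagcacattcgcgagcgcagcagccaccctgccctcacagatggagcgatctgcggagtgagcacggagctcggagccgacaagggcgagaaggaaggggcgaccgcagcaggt
The element's core was found in the Slc1a4 window alone of these, on the minus strand of the gene, starting at position -4 from the start site. Windows were available for 40 of the 57 genes, 18 of the 24 tested, and the core was found for 3 of the 40: Slc1a4, Slc7a7 and Slc6a21. Over all genes with a window, 4.51% of 27025 held it, and 3.91% of the 32544 windows. A match is a description of letters, and a missing match says only that these letters are not in the window.

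All 3 tested light chains of heteromeric transporters passed as higher in both treatments, though the Slc7a6 calls did not hold in every setting. Over all genes tested, 25.2% were higher in oAb and 27.6% in fAb. Slc7a8 (also LAT2; chromosome 14, 54722209 to 54781946), an exchanger of neutral amino acids, was at 82.3, 74.8, 69.3 and 90.7 CPM in scramble, 357, 366, 407 and 424 in oAb, and 340, 340, 377 and 392 in fAb. Every treated library exceeded every control more than 3-fold, and the log2 fold change was 2.30 ± 0.11 (SE) in oAb (adjusted p = 2.4e-07) and 2.23 ± 0.11 in fAb (2.01e-07). Slc7a7, which lies on the same chromosome and strand, stayed at no more than 7 counts. Slc7a5 (LAT1), which brings in leucine and other large neutral amino acids, was at 106, 116, 130 and 149 CPM in scramble, 225, 237, 230 and 246 in oAb, and 199, 188, 224 and 238 in fAb. The groups did not overlap, and it rose by 0.91 ± 0.11 (adjusted p = 0.000115) and 0.79 ± 0.13 (0.000579) on the log2 scale. Slc7a6 (y+LAT2), an exporter of arginine for glutamine, was at 91.2, 77.8, 54.7 and 75.5 CPM in scramble, 91.3, 96.2, 104 and 103 in oAb, and 110, 112, 103 and 102 in fAb. Here scramble 1 reached nearly the lowest oAb library, and the changes of 0.40 ± 0.15 (adjusted p = 0.0436) and 0.55 ± 0.14 (0.00859) did not pass with upper quartile scaling (0.23, adjusted p = 0.195, and 0.36, 0.0522) or with the library set as a term (0.35, 0.0539, and 0.28, 0.314). In oAb it also did not pass without any 1 of scramble 2, scramble 4 or the 4 oAb libraries (adjusted p = 0.0596 to 0.101). Slc3a2, the heavy chain that carries all 3 to the membrane, was at 131 to 198 CPM in scramble, 404 to 422 in oAb and 357 to 400 in fAb, without overlap. It rose by 1.42 ± 0.13 and 1.33 ± 0.14 on the log2 scale (adjusted p = 2.06e-05 and 4.09e-05), while the other heavy chain, Slc3a1, was near 0 in all libraries (at most 0.167 CPM).

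**Figure D3:**
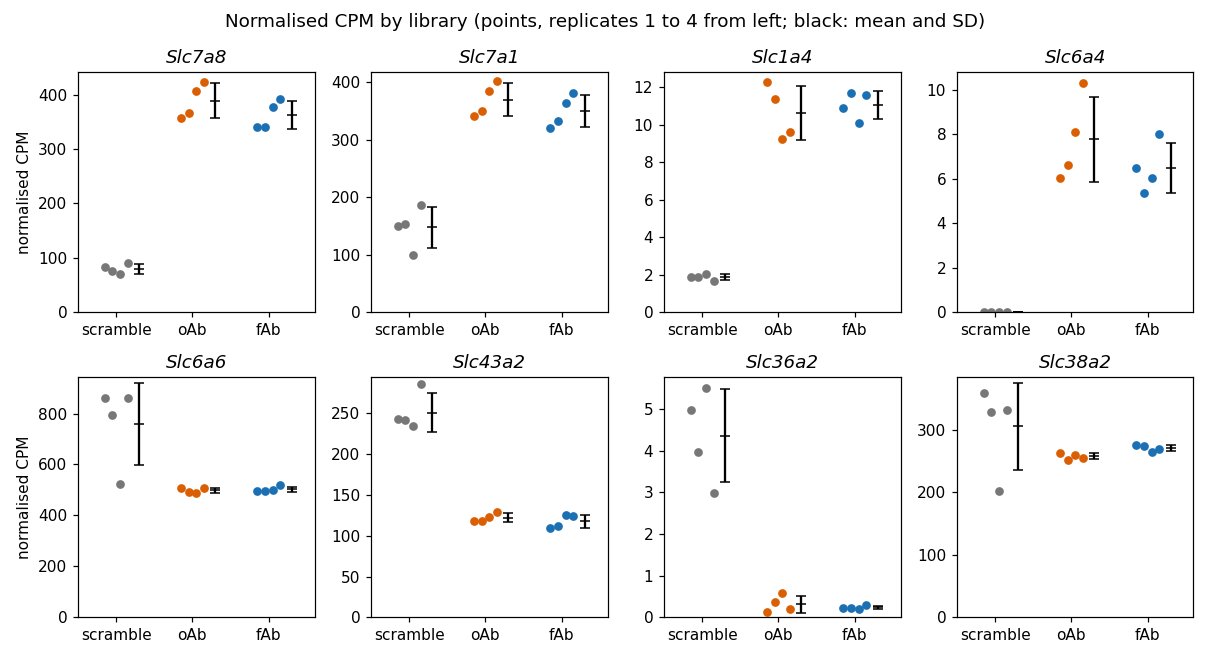
Normalised CPM in each of the 12 libraries for 8 transporter genes, replicates 1 to 4 from left to right within a group, with the group mean and SD in black. Slc7a8, Slc7a1, Slc1a4 and Slc6a4 are higher and Slc43a2 and Slc36a2 lower in every treated library, while for Slc6a6 and Slc38a2 scramble 3 lies far below the other controls.

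Of the cationic amino acid transporters, Slc7a1 rose and Slc7a14 did not pass. Slc7a1 (CAT1), an importer of arginine and lysine, was at 150, 154, 100 and 186 CPM in scramble, 342, 350, 385 and 403 in oAb, and 321, 333, 364 and 382 in fAb. Even the highest control lay well below the lowest treated library, and the log2 fold change was 1.33 ± 0.17 (adjusted p = 0.000156) and 1.28 ± 0.17 (0.00018). Without scramble 3, its lowest control, the values were 1.18 and 1.14. Slc7a14 was scarce, between 1.39 and 3.62 CPM in all 12 libraries, and the groups overlapped. Slc7a3 and Slc7a4 never exceeded 4 counts.

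The 2 neutral exchangers of the SLC1 family differed. Slc1a4 (ASCT1; chromosome 11, 20302180 to 20332713), which carries serine, alanine, cysteine and threonine, was at 1.89, 1.87, 2.03 and 1.67 CPM in scramble, 12.3, 11.4, 9.25 and 9.60 in oAb, and 10.9, 11.7, 10.1 and 11.6 in fAb. No treated library came within 4-fold of any control, and it rose by 2.51 ± 0.15 (adjusted p = 9.83e-07) and 2.61 ± 0.13 (2.29e-07) on the log2 scale. Its level after treatment was still low, 7.23 TPM in oAb and 7.97 in fAb. The related Slc1a5 (ASCT2) was at 191 CPM ± 9.73 in scramble, 191 ± 9.10 in oAb and 188 ± 13.1 in fAb (SD, n = 4 each). The groups overlapped, with log2 fold changes of 0.01 ± 0.08 and 0.02 ± 0.08 (adjusted p = 0.943 and 0.847), whose sign turned under upper quartile scaling (-0.16 and -0.17, neither past the test).

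The SLC38 carriers moved apart from each other. Slc38a2 (SNAT2), a sodium-driven carrier of glutamine and alanine that is known to be induced when amino acids are scarce, was at 359, 328, 202 and 331 CPM in scramble, 262, 252, 260 and 254 in oAb, and 276, 273, 264 and 269 in fAb. Scramble 3 lay below every treated library and the other 3 controls above them. With all 8 libraries it did not pass (log2 fold change -0.24, adjusted p = 0.241, and -0.13, 0.504), and without scramble 3 it fell by 0.40 in oAb (adjusted p = 0.000194) and by 0.28 in fAb (0.000629). Slc38a1 (SNAT1), its neighbour on chromosome 15, was at 200, 179, 119 and 203 CPM in scramble, 241 to 274 in oAb and 250 to 270 in fAb. It rose by 0.55 ± 0.16 (adjusted p = 0.0171) and 0.62 ± 0.15 (0.00766), but the call did not hold with upper quartile scaling in oAb (0.39, 0.0607) or with the library set as a term in fAb (0.44, 0.208). Slc38a7, a lysosomal exporter of glutamine, was at 23.3 to 30.6 CPM in scramble, 43.1 to 48.8 in oAb and 39.1 to 47.7 in fAb. It rose by 0.76 ± 0.11 (adjusted p = 0.000302) and 0.73 ± 0.11 (0.000544).

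Slc38a9, the lysosomal arginine sensor upstream of mTORC1, fell. It was at 22.3, 18.0, 14.3 and 15.8 CPM in scramble, 10.6, 10.7, 12.3 and 12.6 in oAb, and 13.3, 12.7, 13.2 and 12.4 in fAb. The groups did not overlap, and the log2 fold change was -0.61 ± 0.15 (adjusted p = 0.00858) and -0.41 ± 0.14 (0.0298). In fAb the call was lost without any 1 of scramble 1, scramble 2 or the 4 fAb libraries (values from -0.29 to -0.42, adjusted p = 0.0518 to 0.0804), and the value was -0.73 (0.00615) with the library set as a term. Slc38a6 was at 8.96, 7.59, 5.43 and 6.20 CPM in scramble, 5.72, 4.51, 4.72 and 4.13 in oAb, and 6.90, 5.86, 5.70 and 4.68 in fAb, so scramble 3 fell within the range of oAb. It passed in oAb (-0.56 ± 0.19, adjusted p = 0.0304) and not in fAb (-0.25, 0.281). The difference between the treatments did not pass either (0.28, 95% interval -0.05 to 0.61), and the oAb call was lost without any 1 of scramble 1, scramble 2, oAb 2, oAb 3 or oAb 4 (adjusted p = 0.0693 to 0.0888). Of the 50-base words in Slc38a6, 22.8% also occur in other genes, so its counts are uncertain. Slc38a10 was at 127 to 193 CPM over the 12 libraries, with the groups overlapping (0.03, adjusted p = 0.872, and -0.07, 0.699).

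Of the proton-coupled SLC36 carriers, Slc36a2 fell the furthest of the tested transporters. It carries glycine, alanine and proline, lies on chromosome 11 (55158470 to 55185077) and was at 4.98, 3.98, 5.50 and 2.98 CPM in scramble. In oAb it was at 0.131, 0.364, 0.590 and 0.191 CPM, and in fAb at 0.232, 0.223, 0.197 and 0.304, that is 2 to 9 counts per treated library against 48 to 95. The log2 fold change was -3.74 ± 0.39 (adjusted p = 3.56e-05) and -4.11 ± 0.29 (2.99e-06). Slc36a2 passed the filter on low counts only through scramble, so it had to differ and these p-values add no support. Its neighbour Slc36a1, a lysosomal and plasma membrane carrier of the same substrates, lies 19273 bases away. It was at 16.5, 15.9, 9.99 and 13.7 CPM in scramble, 12.0 to 12.6 in oAb and 12.2 to 13.6 in fAb. It did not pass with all libraries (-0.20, adjusted p = 0.325, and -0.10, 0.603), and without scramble 3 it fell by 0.33 in oAb (0.015) and was at -0.23 in fAb (0.0573). Slc36a4, a carrier of proline and tryptophan, was at 56.9, 47.3, 27.2 and 52.8 CPM in scramble, 67.2, 67.3, 69.3 and 62.8 in oAb, and 81.4, 81.1, 77.4 and 71.7 in fAb. All treated libraries exceeded all controls, with changes of 0.54 ± 0.20 (adjusted p = 0.0477) and 0.80 ± 0.20 (0.00744). Without scramble 3 the values were 0.35 (0.00231) and 0.62 (7.16e-05). The call in oAb was lost in 10 of the 17 other settings, among them leaving out any 1 oAb library, scramble 2 or scramble 4 (adjusted p = 0.0564 to 0.099), upper quartile scaling (0.37, 0.135), a minimum of 2 CPM (0.52, 0.0523) and the library set as a term (0.50, 0.0711). It was also lost in fAb with the library set as a term (0.51, 0.235).

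Among the SLC6 carriers of neurotransmitters and osmolytes 4 of 6 tested genes rose and Slc6a6 fell. Over all genes tested 25.2% were higher and 27.0% lower in oAb, and 27.6% and 28.8% in fAb. As 1 of the 4, Slc6a4 passed the filter on low counts only through the treated libraries, so it had to differ. Slc6a4 (chromosome 11, 76998603 to 77032340), the plasma membrane carrier that clears serotonin, had no count in any of the 4 scramble libraries. It was at 6.05, 6.62, 8.13 and 10.3 CPM in oAb and 6.49, 5.36, 6.03 and 8.02 in fAb, from 91 to 162 counts per library. Set against the 3 counts that a 0 allows over the scramble group, Slc6a4 was at least 171-fold higher in oAb (469 counts) and at least 141-fold higher in fAb (432 counts). The flanking protein-coding genes Blmh, 11224 bases before it, and Nsrp1, 11952 bases after it, had counts in every library and changed less, by 0.51 ± 0.12 and 0.65 ± 0.10 in oAb and 0.53 ± 0.11 and 0.73 ± 0.10 in fAb (log2 fold change, all past the test). No other annotated exon overlaps those of Slc6a4. The defining neuronal markers Rbfox3, Snap25, Syt1 and Stmn2 had no count in any library. The summed level of the 6 neuronal markers was 0.139 to 0.716 TPM in scramble, 1.90 to 2.31 in oAb and 1.85 to 2.28 in fAb, nearly all of it Map2.

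Slc6a9 (GLYT1), a glycine carrier, was at 5.82, 4.82, 5.72 and 6.82 CPM in scramble, 18.3, 20.3, 17.4 and 17.3 in oAb, and 17.4, 14.3, 18.2 and 19.9 in fAb. The groups lay far apart, at 1.66 ± 0.13 (adjusted p = 6.01e-06) and 1.63 ± 0.15 (1.44e-05) on the log2 scale. Genes on the other strand, B4galt2 among them, overlap 30.2% of its exon bases, and whether strand was used in counting is not stated, so its value is uncertain. Slc6a8, the creatine carrier, was at 48.3, 51.6, 50.9 and 51.8 CPM in scramble, 106, 107, 98.5 and 97.9 in oAb, and between 92.6 and 102 in fAb. With controls this close to each other, scramble 3 included, it had the smallest standard errors among the called genes: 1.02 ± 0.08 (adjusted p = 5.76e-06) and 0.98 ± 0.08 (7.2e-06). Slc6a13 (GAT2), a carrier of GABA and taurine, was at 5.27 to 7.17 CPM in scramble, 8.87 to 9.75 in oAb and 9.31 to 11.1 in fAb. It rose by 0.59 ± 0.13 (adjusted p = 0.00366) and 0.71 ± 0.13 (0.00125). Slc6a12, its neighbour on chromosome 6, was at 97.2 to 127 CPM in scramble, 102 to 115 in oAb and 103 to 112 in fAb, overlapping throughout (-0.03, adjusted p = 0.792, and 0.01, 0.909).

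Slc6a6 (TauT), which takes up taurine, was at 859, 796, 522 and 862 CPM in scramble, 508, 493, 489 and 507 in oAb, and 496, 496, 501 and 518 in fAb. The controls other than scramble 3 lay far above the treated libraries, scramble 3 only just above the highest of them, and in TPM scramble 3 (150) lay below every treated library. The log2 fold change was -0.60 ± 0.16 (adjusted p = 0.00966) and -0.56 ± 0.15 (0.0117), and without scramble 3 it was -0.75 (1.91e-06) and -0.70 (9.71e-07). Slc6a17, a vesicular carrier of neutral amino acids, was at 25.6, 25.2, 19.1 and 27.8 CPM in scramble, 15.6 to 18.6 in oAb and 15.9 to 19.1 in fAb. It fell by 0.51 ± 0.13 in oAb (adjusted p = 0.0102) and by 0.44 ± 0.13 in fAb (0.018), where scramble 3 met the highest treated library. The fAb call was lost without scramble 4, fAb 2 or fAb 3 (adjusted p = 0.0526 to 0.0588) and with the library set as a term (-0.49, 0.103).

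Slc43a2 (LAT4), a facilitative carrier of leucine, phenylalanine and methionine, was the most abundant transporter to fall by more than 2-fold. It was at 242, 241, 234 and 285 CPM in scramble, 118, 118, 123 and 129 in oAb, and 109, 112, 125 and 124 in fAb. No library of either treatment came near a control, and the log2 fold change was -1.03 ± 0.09 (adjusted p = 1.21e-05) and -1.06 ± 0.09 (1.3e-05). Slc43a1 and Slc43a3 never exceeded 7 counts. Slc7a5 and Slc43a2, which both carry leucine, thus moved in opposite directions: in TPM Slc7a5 went from 102 to 168 in oAb and 161 in fAb, and Slc43a2 from 75.9 to 32.3 and 32.9.

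The makeup of the transporter transcript pool shifted more than its size. The summed TPM of all 57 genes was 1220 to 1330 in 3 scramble libraries and 821 in scramble 3, against 1230 to 1290 in oAb and 1270 to 1320 in fAb. Slc6a6 supplied 18.3 to 25.6% of this sum in scramble, 12.2 to 13.0% in oAb and 12.7 to 13.2% in fAb. Slc7a8 supplied 3.97 to 4.40%, 15.4 to 17.3% and 14.9 to 16.2%, and Slc7a1 2.58 to 3.91%, 6.41 to 7.14% and 6.12 to 6.85%. None of these 3 shares overlapped between scramble and a treatment. For Slc43a2 the share went from 6.09 to 6.90% down to 2.52 to 2.62% and 2.38 to 2.68%.

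**Figure D4:**
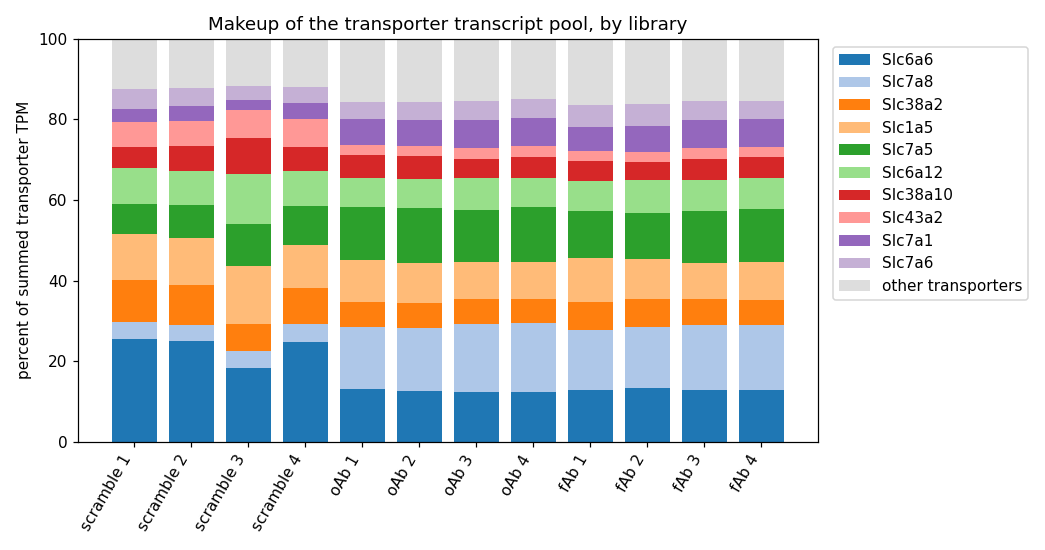
Share of the summed TPM of the 57 transporter genes, in percent, taken by each of the 10 with the highest mean TPM and by all others together, 1 bar per library. The Slc6a6 share is lower and the Slc7a8 share higher in all 8 treated libraries than in any of the 4 scramble libraries.

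No transporter passed the test between fAb and oAb. Of 23 genes tested 0 passed, beside 0.0% of all 10878 genes in edgeR and limma voom and 14 genes in DESeq2. At an unadjusted p under 0.05 there were 1391 genes in edgeR, 12.8% of those tested, and 1 transporter, Slc36a4, which was also the 1 found by DESeq2 and limma voom. Slc36a4 was higher in fAb than in oAb by 0.23 on the log2 scale (95% interval 0.10 to 0.35, adjusted p = 0.375), with every fAb library above every oAb library. Slc38a2 (0.07) did not overlap between the treatments either, which makes 2 of 23 genes beside 6.31% of all genes. The differences ran from -0.27 for Slc6a4 (95% interval -0.65 to 0.12) to 0.28 for Slc38a6 (-0.05 to 0.61). For Slc7a8 the interval was -0.25 to 0.05 and for Slc6a6 -0.09 to 0.11. These intervals do not show that the treatments act alike.

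**Figure D5:**
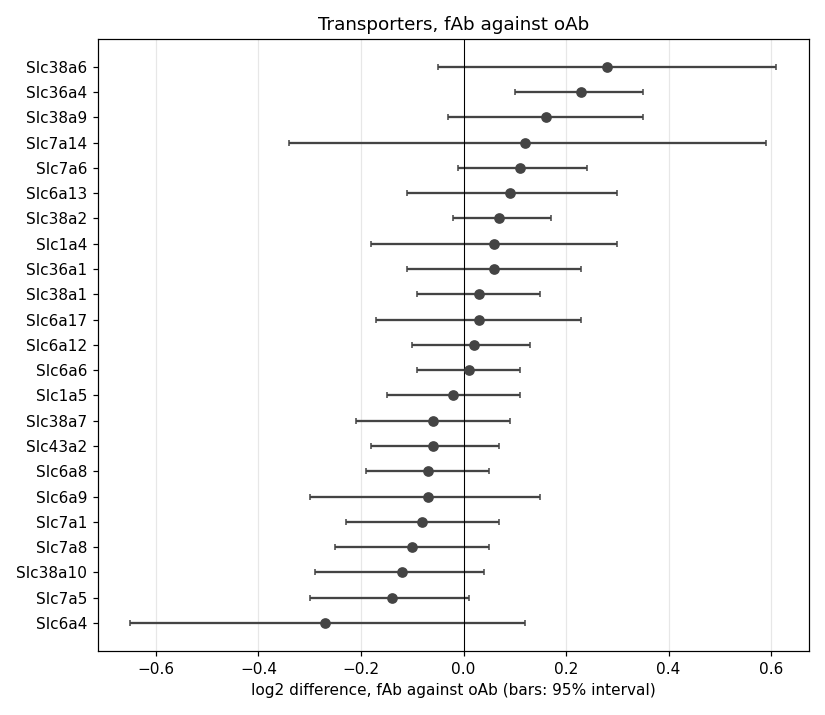
Log2 difference between fAb and oAb for the 23 tested transporter genes, with 95% intervals from edgeR's quasi-likelihood fit. All points lie between -0.27 and 0.28, and Slc36a4 has the 1 interval that leaves out 0.

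Genes that act with the transporters were grouped in 4 lists. Of 11 tested partner proteins and amino acid carriers of other families, 3 rose and 2 fell in oAb, and 3 rose and 3 fell in fAb, no larger a share than among all genes (52.2% and 56.3% past the test). Besides Slc3a2 (above), Slc16a10, a carrier of aromatic amino acids, rose by 1.63 ± 0.10 and 1.62 ± 0.10 on the log2 scale. Slc15a3, a lysosomal carrier of histidine and small peptides, had the largest rise of this list, from a mean of 11.4 CPM in scramble to 804 in oAb and 699 in fAb (6.15 ± 0.20 and 5.98 ± 0.20). Slc17a5, a lysosomal carrier of sialic acid and acidic amino acids, went from 30.7 to 7.22 and 8.57 CPM (-2.09 ± 0.14 and -1.80 ± 0.12). The 4 genes are those with the smallest adjusted p in oAb (all at most 2.06e-05).

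Of 20 tested genes of the amino acid response, the programme run by the kinase GCN2 and the factor ATF4, 13 rose and 1 fell in oAb, and 12 rose and 2 fell in fAb, with median log2 fold changes of 1.25 and 0.98. Over all genes 25.2% rose and 27.0% fell in oAb and 27.6% and 28.8% in fAb, with medians of -0.07 and -0.04. Atf4 itself went from 76.0 CPM in scramble to 346 in oAb and 334 in fAb (2.19 ± 0.13 and 2.18 ± 0.11). Atf3, a stress-induced factor, rose by 1.89 ± 0.09 and 1.93 ± 0.08, the stress protein gene Nupr1 by 3.17 ± 0.17 and 3.13 ± 0.16, and Cth, which makes cysteine, by 3.17 ± 0.13 and 3.29 ± 0.13. The kinase GCN2 is encoded by Eif2ak4, the gene of the list that fell in both (-0.65 ± 0.16 and -0.60 ± 0.14). Slc1a4, Slc7a1, Slc7a5, Slc6a9 and Slc3a2, described above, are known targets of ATF4, as is Slc38a2, which did not rise. The part of ATF4 in any of these changes was not tested.

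Of 35 tested genes of amino acid sensing at the lysosome and mTORC1, 6 rose and 11 fell in oAb, and 6 rose and 15 fell in fAb, close to the share of all genes past the test (52.2% and 56.3%), so that the counts say little about the list. The kinase gene Mtor and its partner Rptor did not pass (0.01 and -0.02 in oAb, 0.05 and -0.04 in fAb). Inhibitors of the pathway were among those that fell: the leucine sensor Sesn1 from 127 CPM to 8.72 and 10.5 (-3.86 ± 0.11 and -3.56 ± 0.12), the mTOR-binding Deptor from 59.6 to 4.49 and 6.71 (-3.73 ± 0.26 and -3.11 ± 0.25), the arginine-sensor homologue Castor2 (-1.52 ± 0.10 in both) and Nprl2, a subunit of the GATOR1 complex (-1.12 ± 0.16 and -1.0 ± 0.15). These 4 were named as the genes of the list with the smallest adjusted p in oAb, and the 6 that rose are not named. The arginine sensor Slc38a9, upstream of mTORC1 (above), also fell but is not one of these inhibitors. The activity of mTORC1 was not tested. The fAb count was 9 with the library set as a term and 12 without fAb 1, and the oAb count was 11 without oAb 2 or oAb 3.

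Of 21 tested enzymes of glutamine, glutamate, proline, branched-chain and aromatic amino acids, 4 rose and 7 fell in each treatment, again close to the share of all genes (52.2% in oAb and 56.3% in fAb). Bcat1, which starts the breakdown of branched-chain amino acids in the cytosol, rose by 1.82 ± 0.10 and 1.83 ± 0.08, and Bckdha, a subunit of the mitochondrial complex of the next step, fell by 1.61 ± 0.19 and 1.90 ± 0.22. In tryptophan breakdown the scarce Ido2 went from 0.153 CPM to 1.70 and 1.55, and Kmo from 5.25 to 0.691 and 0.737. Ido2, counted among the 4 that rose, passed the filter on low counts only through the treated libraries, so it had to differ. Kmo was close to that filter after treatment. The fAb count was 6 with the library set as a term. No gene of the 4 lists passed between fAb and oAb.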

How the data were processed

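For each of the 12 IMG samples, 2 ug of RNA went into a stranded mRNA library, per the labels' protocols. The authors deposited whole-number counts per gene and TPM, scaled for transcript length by the authors, in 2 tables that share the 4 control columns, per the file headers. The submitters' processing notes name the build mm10. Aligner, counter and strand setting were not given in the sources used here. A further 32 columns of per-sample values were not used.

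The members and all lists were chosen with earlier results of these data known. The count test was edgeR 4.0.16 (R 4.3.3), fitted to the 8 libraries of each comparison: filterByExpr with a minimum count of 10, TMM scaling, robust quasi-likelihood F test, two-sided, Benjamini-Hochberg adjustment over all genes tested, threshold 0.05. The fit was also run on simulated counts in which few genes changed. That check does not cover comparisons where 52.2% and 56.3% of genes pass. Displayed CPM use TMM over all 12 libraries. Levels are compared between genes in TPM only. Alternatives used DESeq2 1.42.0, limma 3.58.1, other scalings, filters, terms and left-out libraries. Genes given in full are the 10 with the highest mean TPM, the 8 largest rises and falls past the test with a mean of at least 2 CPM, any called between treatments, and, from each list, the 4 with the smallest adjusted p in oAb plus Slc3a1 and Slc3a2. The other detected transporters, Eif2ak4, Mtor, Rptor, Blmh and Nsrp1 were added after their values were seen. Gene positions are those of the deposited tables. In GENCODE M21, 56 of the 57 had the same start and end. Start-site windows came from RefSeq (GRCm38.p6).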

Additional observations from a re-analysis of the deposited data

Results flagged for a closer look

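Slc43a2 in scramble 4 was flagged because, at 285 CPM, it lay far above the other 3 controls (234 to 242), with a gap of 0.834 of the group's range. Of 69 groups of 4 libraries examined over 23 transporter genes this was the 1 such case, and chance flags about 1 in 20 groups.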

How the results depend on the processing

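Over 17 other settings per comparison (scaling, filter, tool, terms, left-out libraries), 14 of the 18 transporter calls in oAb and 12 of the 17 in fAb held in every one. The exceptions are given with their values in the report or, for the replicate block, below. The share of all genes whose calls held in every setting is not given here. Over all genes, oAb against scramble had 4962 to 7174 calls with 1 library left out. The highest was 7174 of 11148 genes tested, without scramble 3, against 5761 of 11033 with all libraries. With the library set as a term it was 5734. Shifts in the transporter count are to be read beside these. The transporter count was 15 to 20 in oAb and 15 to 18 in fAb with 1 library left out, 20 and 18 without scramble 3 (12 higher in both), 16 and 13 with the library set as a term (10 higher and 6 lower, 9 higher and 4 lower), and 0 between fAb and oAb throughout. Over all genes, fAb against scramble had 3844 calls with the library set as a term (2020 higher, 1824 lower) against 6235, and fAb against oAb had 14 with DESeq2 against 0. With the library set as a term fAb is compared with scramble 1 alone, the only control in its set, and standard errors were wider (Slc7a8 in fAb 0.20 against 0.11). How much of the change in calls comes from this was not tested, nor was the cause of the difference between tools. Upper quartile scaling moved the median log2 fold change of all genes from -0.07 to -0.24 in oAb and from -0.04 to -0.23 in fAb. The split of higher and lower calls went from 2777 and 2984 to 2127 and 4015 in oAb and from 3051 and 3184 to 2273 and 4361 in fAb, and for transporters to 9 and 6 in oAb and 11 and 5 in fAb.

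Signs turned only for genes that did not pass. With upper quartile scaling Slc1a5 was at -0.16 (oAb) and -0.17 (fAb), Slc38a10 at -0.14 and Slc7a14 at -0.09 (oAb), and Slc6a12 at -0.17 (fAb). With a minimum of 2 CPM Slc1a5 was at -0.01 in both and Slc6a12 at -0.01 in fAb, and with all 12 libraries both were at -0.02 in fAb. Slc38a10 was at 0.22 in fAb with the library set as a term. With 1 library left out Slc1a5 ran from -0.02 to 0.04 (oAb), Slc38a10 ran from -0.05 to 0.14 (oAb), Slc6a12 ran from -0.09 to 0.04 (oAb), Slc7a14 ran from -0.11 to 0.33 (oAb), Slc1a5 ran from -0.02 to 0.06 (fAb), Slc38a10 ran from -0.16 to 0.05 (fAb) and Slc6a12 ran from -0.06 to 0.09 (fAb).

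The replicate number as a block gave 16 transporter calls in oAb (10 higher, 6 lower) and 17 in fAb, with 5081 and 6292 over all genes. Slc36a4 (0.58, adjusted p = 0.0663) and Slc7a6 (0.42, 0.0824) did not pass in oAb, and no other transporter call changed. Same-numbered deviations from the group means correlated at -0.25 to 0.08 in oAb against scramble and 0.07 to 0.16 in fAb. Not every library correlated best with its own number (oAb 3 with scramble 1, 0.45). With 4 libraries per group, such correlations cannot settle whether the numbers pair the libraries. Genes with few counts, such as Slc36a2 and Slc7a14, are limited by depth.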

Other observations

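Slc7a6os, a neighbour named for lying opposite Slc7a6 and outside the family pattern, was at 15.6 to 19.9 CPM in scramble, 22.4 to 30.6 in oAb and 24.7 to 27.6 in fAb, without overlap, and rose by 0.61 ± 0.14 (adjusted p = 0.00434, edgeR) and 0.61 ± 0.11 (0.000942) on the log2 scale. Sertad2, the protein-coding gene nearest to Slc1a4 on its start side, rose by 1.31 ± 0.14 and 1.32 ± 0.15, and Cep68, nearest on the other side, fell by 0.81 ± 0.15 and 0.75 ± 0.14. Cebpe and Rnf212b, the protein-coding genes flanking Slc7a8, never exceeded 3 counts.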
